A study of Mus musculus with 9 samples.

Results

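The respiratory chain genes of mouse tumours driven by SMO-M2, an activated form of the Hedgehog pathway protein Smoothened, were examined in 9 bulk RNA libraries. Members were the rows of the deposited table whose symbols begin with mt-Nd, mt-Co, mt-Cytb or mt-Atp, with Nduf followed by a, b, c, s or v and a digit, with Cox4 to Cox8, with Uqcr or with Atp5, without pseudogene symbols. This gave 89 of 17482 genes, of which 13 are encoded by the mitochondrial genome and 76 by nuclear chromosomes. All libraries came from tumour tissue recorded as MB at postnatal day 8 or 9. The YSGr and YSGnr tumours (3 libraries each) carried fYap1, fSMO-M2 and hGFAPcre and were marked rescued and non-rescued, a distinction the labels do not define. The SG tumours (3 libraries) carried fSMO-M2 and hGFAPcre without fYap1. All 3 groups therefore share the SMO-M2 allele and a Cre driven by the human GFAP promoter, and cells that this driver does not reach keep an intact Yap1 gene. Whether the 3 libraries of a group are 3 animals is not recorded, and the p-values below speak only of how much these libraries vary, technical variation included.

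Oxidative phosphorylation is carried out in the inner mitochondrial membrane. Complex I takes electrons from NADH, complex III passes them from ubiquinol to cytochrome c, complex IV hands them to oxygen, and complex V uses the resulting proton gradient to make ATP. Complexes I, III, IV and V are each built from mitochondrially encoded core subunits and imported nuclear subunits, so that transcripts from separate genomes have to supply one assembly. Granule neuron progenitors, the cells from which Hedgehog-driven cerebellar tumours arise, are known to rely strongly on glycolysis while they divide, and neurons on oxidative phosphorylation as they mature.

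Values are log2 CPM, the logarithm of read counts scaled to library size, and differences were tested with limma over all 15251 genes with enough signal. A gene was called when its Benjamini-Hochberg adjusted p was below 0.05. Of the 89 members 88 entered, and Cox6a2, a muscle isoform of complex IV, did not.

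The libraries were not alike in quality. YSGnr replicate 1 had 9.64 M back-calculated reads, and Yam1 and Lars2 took 63.4% of them. The other 8 had 17.3 to 29.2 M, with at most 8.15% in that pair of genes. The fold changes of all tested genes with a known transcript length were lower for longer transcripts in YSGr replicate 3 (Spearman rho over genes -0.41 against the SG mean) and in YSGnr replicates 2 and 3 (-0.54 and -0.51), and not in YSGnr replicate 1 (-0.08). YSGr replicates 1 and 2 had the opposite sign (0.16 and 0.13). The targeted gene Yap1 had values of 4.44, 3.31 and 2.79 log2 CPM in YSGr and 2.79, 2.57 and 1.99 in YSGnr, against 5.04, 5.11 and 5.03 in SG. Xist, the X-inactivation RNA, was at least 9.81 log2 CPM in the YSGr libraries and YSGnr replicate 1 and at most -0.25 in the other 5. The Y-linked gene Ddx3y was at -3.52 in the former libraries and at least 4.97 in the other 5. Sex as read from these genes therefore separates YSGr from SG and cannot be told apart from group there. It also sets YSGnr replicate 1 apart from YSGnr replicates 2 and 3. In every fit without YSGnr replicate 1, sex therefore separates YSGr from YSGnr too and cannot be told apart from group.

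Per kilobase of transcript, the mitochondrially encoded members were far more abundant than the nuclear ones. In SG their median was 10.47 log2 CPM per kilobase, with a range of 8.58 to 12.17, whereas the 76 nuclear members had a median of 6.16 and a range of -0.66 to 8.83. The highest was mt-Co1, the catalytic subunit of complex IV, at 12.17 log2 CPM per kilobase, and the highest nuclear member was Atp5b, the catalytic beta subunit of complex V, at 8.83. By complex the nuclear medians per kilobase were 5.79 for complex I, 6.31 for III, 7.19 for IV and 7.36 for V. The 13 mitochondrial messages together held 3.14%, 3.04% and 2.95% of the reads outside Yam1 and Lars2 in YSGr and 3.06%, 4.12% and 4.35% in YSGnr, against 2.80%, 2.69% and 3.01% in SG. The 76 nuclear members held 0.843%, 0.896% and 1.21% in YSGr and 0.826%, 1.33% and 1.42% in YSGnr, against 0.827%, 0.828% and 0.811% in SG. YSGr replicate 3 is high for the nuclear members alone, and YSGnr replicates 2 and 3 for both kinds.

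The sequences below show why some mitochondrial values are uncertain and which promoters belong to the called nuclear members. The mitochondrial genes lie nearly end to end. The last 43 bases of mt-Atp8 (chromosome M, 7766 to 7969, plus strand, GENCODE M21 on GRCm38) are also the first 43 of mt-Atp6 (7927 to 8607), and capitals mark them in the whole mt-Atp8 transcript.
mt-Atp8: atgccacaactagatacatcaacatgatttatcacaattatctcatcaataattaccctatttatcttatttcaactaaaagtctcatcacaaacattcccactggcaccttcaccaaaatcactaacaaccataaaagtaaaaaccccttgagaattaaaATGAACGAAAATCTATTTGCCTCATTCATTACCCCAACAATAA
Reads over these bases can be given to either gene. In the same way mt-Nd4l shares 7 bases with mt-Nd4, and mt-Nd5 shares 14 with mt-Nd6, which is read from the other strand. The labels do not say whether the libraries kept strand, and without it reads of mt-Nd6 and of its antisense RNA cannot be told apart. Copies of mitochondrial sequence in nuclear chromosomes, and processed pseudogenes of the nuclear members, can also take or give reads.

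The nuclear members moved together, library by library, rather than by group. Relative to the SG mean, the median of the 75 tested nuclear members was 0.04, 0.03 and 0.65 log2 units in YSGr replicates 1, 2 and 3 and -0.07, 0.92 and 1.01 in YSGnr replicates 1, 2 and 3. The 3 SG libraries lay between -0.02 and 0.02 around their own mean. Thus 1 YSGr library and 2 YSGnr libraries were high, and the other 3 were close to SG. In YSGr replicate 3, 73 of the 75 were above the highest SG library, with Ndufs1 (below the SG range) and Atp5s as the exceptions. In YSGnr replicate 2 it was 72 of 75, without Cox4i2, Ndufa4l2 and Atp5s, and in YSGnr replicate 3 it was 74 of 75, without Ndufa4l2. In YSGr replicates 1 and 2 there were 33 and 35 above and 21 and 20 below the SG range, and in YSGnr replicate 1 there were 26 above and 38 below.

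**Figure D1:**
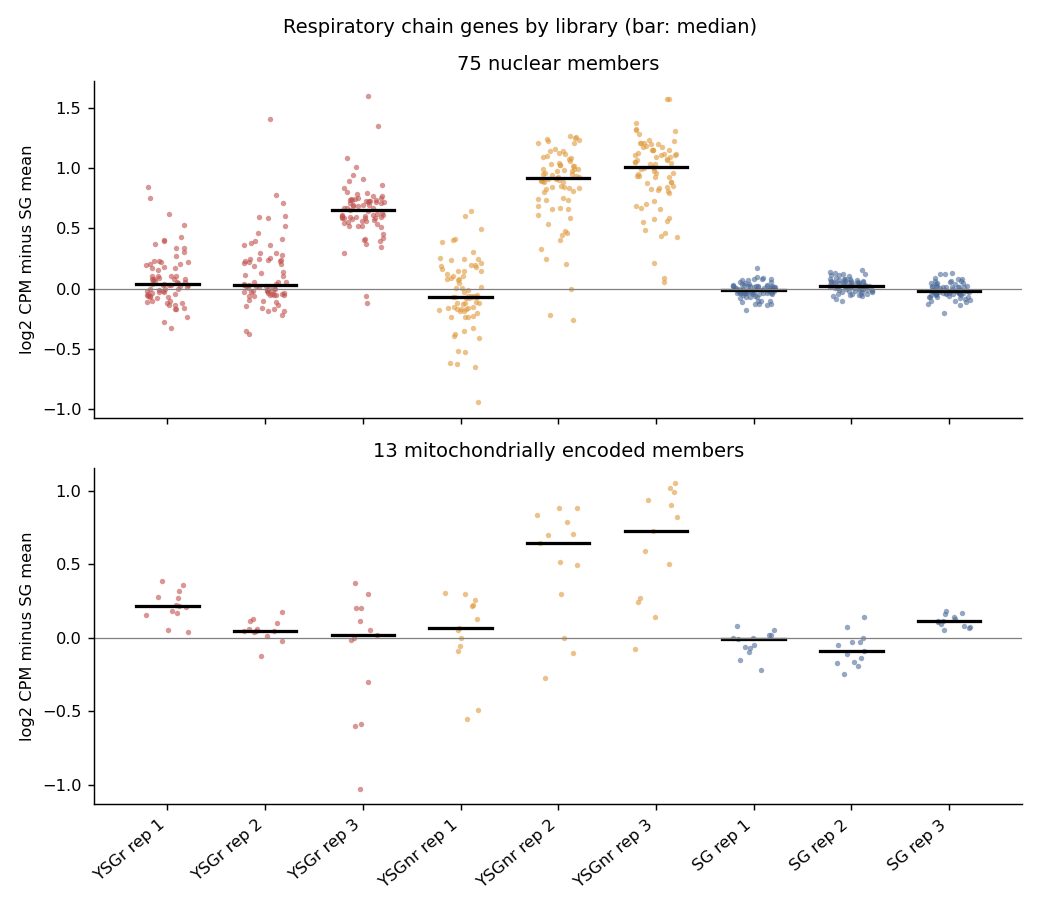
Difference of each respiratory chain gene from its SG mean (log2 CPM, vertical) in each library (horizontal), for 75 nuclear members above and 13 mitochondrially encoded members below. Points are genes and bars are medians: the nuclear medians are 0.65 in YSGr replicate 3 and 0.92 and 1.01 in YSGnr replicates 2 and 3, and near 0 elsewhere.

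This block cut across complexes. In YSGr replicate 3 the nuclear median was 0.65 for complex I, 0.65 for III, 0.69 for IV and 0.61 for V. YSGnr replicate 2 gave 0.97, 0.89, 0.90 and 0.89 in the same order, and YSGnr replicate 3 gave 1.05, 1.06, 0.95 and 1.04. In YSGnr replicate 1 all 4 medians lay between -0.12 and 0.00. The 7 nuclear core subunits of complex I carry the flavin and iron-sulfur clusters. Their medians were 0.62, 0.80 and 1.18 in YSGr replicate 3 and YSGnr replicates 2 and 3. The 28 accessory subunits had 0.65, 0.99 and 1.04 there. In YSGnr replicate 1 the core median was 0.20 and the accessory median -0.07. All YSGnr libraries were above all SG libraries for 5 of the 7 and 8 of the 28, where 16.9% of all tested genes were. In YSGr it was 0 of the 7 and 6 of the 28, where 19.5% of all tested genes were.

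Of the 88 tested members 2 rose and none fell in YSGr against SG, a share of 2.27% beside 10.5% of all tested genes called, 6.58% higher and 3.97% lower, and 6 members had an unadjusted p below 0.05. In YSGnr against SG 1 rose and none fell, a share of 1.14% beside 3.36% of all tested genes, 1.19% higher and 2.17% lower, and 40 members had an unadjusted p below 0.05. No member was called between YSGr and YSGnr by limma, where 5.97% of all tested genes were, 5.09% higher and 0.879% lower; 8 members had an unadjusted p below 0.05 there, and limma voom also called 0. Without YSGnr replicate 1 the calls were 7, 76 and 59 in YSGr against SG, YSGnr against SG and YSGr against YSGnr, when 15.7%, 21.8% and 31.0% of all tested genes were called. All 59 calls between YSGr and YSGnr were lower in YSGr, and sex cannot be told apart from group in that comparison without YSGnr replicate 1. Without YSGr replicate 3 they were 2, 15 and 15, when 27.9%, 17.3% and 42.8% of all tested genes were called, so these counts were at or below the share of all genes. Leaving out any SG library brought the counts against SG to 0, as did leaving out YSGr replicate 2 in YSGr against SG and YSGnr replicate 2 or 3 in YSGnr against SG, and 1 call was left in YSGr without its replicate 1. In these fits at most 2.73% of all tested genes were called in YSGr against SG and at most 1.36% in YSGnr against SG, so that such counts are close to those of genes in general.

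Ndufv3, which encodes a small accessory subunit beside the NADH-binding site of complex I, was the member that rose in both Yap1-floxed groups. It was at 6.08, 6.02 and 6.32 log2 CPM in YSGr and 5.88, 6.48 and 6.45 in YSGnr, against 5.14, 5.30 and 5.29 in SG. All 6 libraries with the floxed allele stood above all SG libraries, including YSGnr replicate 1 and YSGr replicates 1 and 2, whose medians over the nuclear members were near 0. The log2 fold change was 0.90 in YSGr (SE 0.18, limma adjusted p = 0.0168) and 1.03 in YSGnr (SE 0.18, limma adjusted p = 0.0226). YSGr and YSGnr differed by -0.13 (SE 0.18, limma adjusted p = 0.618). The call in YSGr was lost when any SG library or YSGr replicate 1 or 2 was left out, and in YSGnr when any SG library or YSGnr replicate 2 or 3 was, with limma adjusted p of at most 0.085 and 0.14. Over 22 alternatives the log2 fold change stayed between 0.79 and 0.96 in YSGr and between 0.79 and 1.22 in YSGnr. The gene lies on chromosome 17 at 31520115 to 31531331 (GRCm38, plus strand) and makes a short and a long protein by alternative splicing, which gene-level values do not separate.

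Atp5sl carries an ATP synthase symbol but its protein, DMAC2, is known as an assembly factor for the distal membrane arm of complex I. It was at 4.40, 4.58 and 4.66 log2 CPM in YSGr and 4.48, 4.35 and 4.45 in YSGnr, against 3.75, 4.0 and 3.87 in SG, again with no overlap. It rose in YSGr by 0.67 log2 units (SE 0.14, limma adjusted p = 0.0182), and the value in YSGnr was 0.55 (SE 0.14, limma adjusted p = 0.058), which was not called. The call in YSGr was lost without any 1 of the SG libraries or YSGr replicate 2, with an adjusted p of at most 0.0937. Over the same alternatives its log2 fold change in YSGr lay between 0.58 and 0.75. Its 3 YSGnr libraries spread by an SD of 0.07, against 0.33 for Ndufv3.

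**Figure D2:**
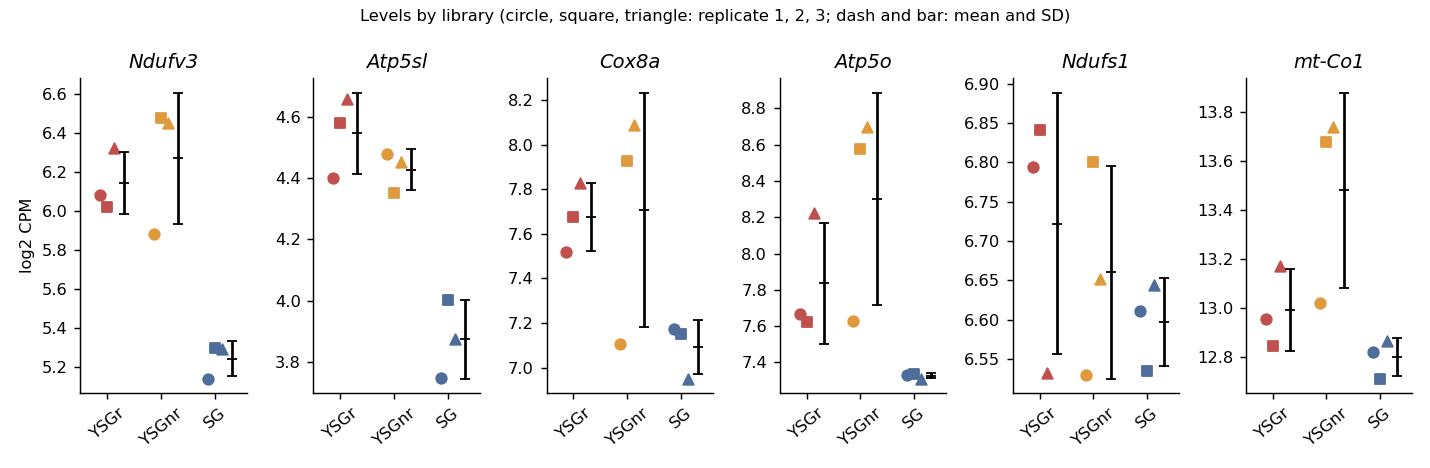
Levels of 6 members (log2 CPM, vertical, a separate scale for each gene) in YSGr, YSGnr and SG libraries. Symbols are replicates 1, 2 and 3 and the black mark is mean ± SD (n = 3): for Ndufv3 and Atp5sl all YSGr and YSGnr libraries lie above SG, and for Ndufs1 the groups overlap.

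The RefSeq windows from 250 bases before to 50 after the start of these genes are printed with those of Cox8a, a complex IV subunit gene that was the member of complex IV with the smallest p in YSGr against SG. Both strands were searched for the letters GCGCATGCG (NRF1), AAGATGGCG (YY1), CCGGAAGT (the ETS factor GABPA) and TCAAGGTCA (ESRRA), 4 factors known to bind promoters of respiratory genes, and capitals mark the matches. The windows are on GRCm38.p6: chr17:31519865-31520164 (plus strand), chr7:25619164-25619463 (plus strand, listed as Dmac2) and chr19:7217567-7217866 (minus strand).
Ndufv3: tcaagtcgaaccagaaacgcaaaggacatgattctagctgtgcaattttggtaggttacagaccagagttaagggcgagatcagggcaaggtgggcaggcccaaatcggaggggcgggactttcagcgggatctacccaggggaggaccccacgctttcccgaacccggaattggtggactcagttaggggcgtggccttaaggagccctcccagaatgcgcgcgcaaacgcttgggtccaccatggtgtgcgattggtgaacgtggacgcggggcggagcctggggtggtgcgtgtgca
Atp5sl: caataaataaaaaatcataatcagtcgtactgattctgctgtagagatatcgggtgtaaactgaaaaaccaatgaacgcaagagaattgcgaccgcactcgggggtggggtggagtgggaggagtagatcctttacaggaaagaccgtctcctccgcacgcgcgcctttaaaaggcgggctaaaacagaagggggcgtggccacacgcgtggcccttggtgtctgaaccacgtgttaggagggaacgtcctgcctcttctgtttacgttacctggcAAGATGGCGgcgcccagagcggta
Cox8a: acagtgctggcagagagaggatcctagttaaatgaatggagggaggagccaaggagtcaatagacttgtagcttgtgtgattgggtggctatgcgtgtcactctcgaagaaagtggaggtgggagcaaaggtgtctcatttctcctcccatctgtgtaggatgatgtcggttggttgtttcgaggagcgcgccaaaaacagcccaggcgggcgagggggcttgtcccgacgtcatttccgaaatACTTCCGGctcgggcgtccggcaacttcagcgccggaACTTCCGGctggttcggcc
A window was at hand for 63 of the 76 nuclear members. The NRF1 letters were in 11.1% of these and in 1.95% of all 27025 genes with a window, the YY1 letters in 12.7% and 1.64%, the ETS letters in 7.94% and 4.31%, and the ESRRA letters in 1.59% and 0.466%. These are matches of letters only and show no binding. The YY1 letters stand near the start of Atp5sl, the ETS letters occur in a pair in Cox8a, and none of the 4 is in the Ndufv3 window.

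Between YSGr and SG, 30 of the 88 tested members (34.1%) had all YSGr libraries above all SG libraries and none had all below, where 19.5% of all tested genes were apart in the higher direction and 17.3% in the lower. By count complex IV contributed most, with 10 of its 16 tested nuclear members, against 6 of 35 for complex I, 5 of 8 for III and 5 of 15 for V. By share complexes III and IV were equal, at 62.5%. Complex I, at 17.1%, was below the 19.5% of all tested genes. Cox8a was at 7.52, 7.68 and 7.83 log2 CPM in YSGr, against 7.17, 7.15 and 6.95 in SG, a difference of 0.58 that was not called (SE 0.24, limma adjusted p = 0.156). Cox6a1, the non-muscle form of subunit 6a, was at 7.11, 7.29 and 7.60 in YSGr, against 6.95, 6.85 and 6.84 in SG (limma adjusted p = 0.182). Cox5b, a zinc-binding subunit, was at 6.86, 6.84 and 7.29 in YSGr, against 6.42, 6.52 and 6.44 in SG (limma adjusted p = 0.268). For all 3 genes the YSGr libraries therefore lay above SG by amounts that did not pass the test. Without YSGr replicate 3 and YSGnr replicate 1, 18 members were called in this comparison, 16 of them higher, when 49.5% of all tested genes were called.

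Between YSGnr and SG, 33 of the 88 (37.5%) were apart in the higher direction and none in the lower, where 16.9% of all tested genes were apart in the higher direction and 21.3% in the lower. Atp5o, the stalk subunit that confers oligomycin sensitivity on complex V, was at 7.63, 8.57 and 8.70 in YSGnr, against 7.33, 7.34 and 7.31 in SG, a difference of 0.97 (SE 0.28, limma adjusted p = 0.0813). Ndufv1, the flavin-binding core subunit of complex I, was at 6.91, 7.41 and 7.75 in YSGnr, against 6.51, 6.55 and 6.52 in SG (difference 0.83, SE 0.23, limma adjusted p = 0.078). Ndufs8, an iron-sulfur core subunit, was at 6.11, 6.91 and 7.27 in YSGnr, against 5.6, 5.78 and 5.71 in SG (difference 1.06, SE 0.33, limma adjusted p = 0.0976). Uqcrc2, a core protein of complex III, was at 7.21, 7.87 and 8.09 in YSGnr, against 6.95, 6.97 and 6.99 in SG (difference 0.75, limma adjusted p = 0.0982). In each of the 4 YSGnr replicate 1 was the lowest of its group and yet above SG, so the spread within YSGnr was wide.

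The most abundant nuclear members of complexes V and IV showed the block at high signal. Atp5b was at 9.81, 9.79 and 10.36 log2 CPM in YSGr and 9.95, 10.44 and 10.84 in YSGnr, against 9.82, 9.71 and 9.77 in SG. Cox4i1, the common form of subunit 4 of complex IV, was at 7.92, 7.96 and 8.59 in YSGr and 7.97, 8.79 and 8.97 in YSGnr, against 7.84, 7.84 and 7.78 in SG. In both the third YSGr library stood apart from the first 2, and YSGnr replicate 1 was the lowest of its group, though above SG. Uqcrc1, a core protein and the most abundant nuclear member of complex III, was at 7.17, 7.21 and 7.69 in YSGr and 7.49, 7.56 and 8.04 in YSGnr, against 7.12, 7.05 and 7.12 in SG, so that its first 2 YSGnr libraries were alike and both above SG. None of the 3 was called (limma adjusted p of at least 0.101).

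Some nuclear members stayed outside the block. Ndufs1, the largest core subunit of complex I, was at 6.79, 6.84 and 6.53 log2 CPM in YSGr and 6.53, 6.80 and 6.65 in YSGnr, against 6.61, 6.53 and 6.64 in SG. Atp5s, a factor linked to coupling in complex V, was low throughout, at 2.30, 2.80 and 2.07 in YSGr and 1.25, 2.19 and 2.41 in YSGnr, against 2.06, 2.20 and 2.33 in SG. Neither was called in any of the comparisons, with limma adjusted p of at least 0.339. The 3 X-linked members were above SG in the 3 high libraries of the block, though for Ndufb11 and Ndufa1 not only there. Ndufb11 was at 6.21, 6.22 and 7.29 in YSGr and 6.63, 7.64 and 7.94 in YSGnr, against 6.39, 6.38 and 6.35 in SG. Ndufa1 was at 4.72, 4.87 and 4.99 in YSGr and 3.82, 5.25 and 5.32 in YSGnr, against 4.32, 4.29 and 4.42 in SG. All its YSGr libraries were thus above SG. Ndufa1 and Cox7b, the other X-linked members, were not called either (limma adjusted p of at least 0.392).

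The nuclear isoforms of complex IV known from muscle and other tissues were rare. Cox7a1, the muscle and heart form of subunit 7a, was at -0.14, 0.51 and 0.70 log2 CPM in YSGr and -1.54, 0.06 and 0.41 in YSGnr, against -1.08, -0.84 and -0.78 in SG. Cox4i2, the lung-enriched and oxygen-responsive form of subunit 4, was at 0.95, 0.72 and 1.68 in YSGr and 0.15, 0.11 and 0.82 in YSGnr, against 0.25, 0.36 and 0.37 in SG. The YSGr libraries lay above SG for both, with differences of 1.25 (SE 0.53) and 0.79 (SE 0.34) that were not called (limma adjusted p = 0.168 and 0.178). Cox4i2 is also a known transcript of pericytes, and the median of 6 mural cell markers relative to SG was -0.38, -0.25 and -0.43 in the YSGr libraries. In bulk tissue, fewer cells of a type and less RNA per cell cannot be told apart. Cox6a2 was at -0.09, -1.24 and -0.34 in YSGr and -3.52, -0.34 and -1.24 in YSGnr, against -0.92, -1.71 and -1.03 in SG, where -3.52 is the lowest value of the table. Cox6b2, the testis form of subunit 6b, was at 1.35, 1.87 and 1.86 in YSGr and 1.77, 1.68 and 1.74 in YSGnr, against 1.30, 1.35 and 1.17 in SG. Ndufa4l2, a hypoxia-induced paralog of the complex IV subunit gene Ndufa4, was at 1.42, 1.30 and 1.88 in YSGr and 1.40, 1.22 and 1.57 in YSGnr, against 1.65, 1.51 and 1.27 in SG. Neither was called (limma adjusted p of at least 0.229).

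The mitochondrially encoded members were high in fewer libraries than the nuclear ones. Their median relative to SG was 0.22, 0.05 and 0.02 log2 units in YSGr replicates 1, 2 and 3 and 0.07, 0.64 and 0.72 in YSGnr replicates 1, 2 and 3. YSGnr replicates 2 and 3 were thus high for both kinds of member, while YSGr replicate 3, at 0.65 for the nuclear kind, was at SG level for the mitochondrial kind. The mitochondrial median minus the nuclear one was 0.18, 0.02 and -0.64 in YSGr and 0.14, -0.27 and -0.28 in YSGnr, against 0.01, -0.11 and 0.13 in SG. In the fit this difference of medians was -0.15 for YSGr against SG, -0.15 for YSGnr against SG and -0.03 for YSGr against YSGnr. All 3 are smaller than the SD of 0.29 between libraries of a group, and no p is given for a score over the members. Without YSGr replicate 3 the first became 0.12, so its sign rests on that library.

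None of the 13 was called in any comparison on all 9 libraries. Without YSGnr replicate 1, 8 of them were called in YSGnr against SG and 7 in YSGr against YSGnr. In that fit 21.8% and 31% of all tested genes were called. Without YSGr replicate 3 as well the counts were 9 and 8, when 52.9% and 64.7% of all tested genes were called. The 8 of 13 in YSGr against YSGnr there is below the share of all genes. Without YSGr replicate 3 alone, mt-Nd4l was called in YSGnr against SG (limma adjusted p = 0.0429), when 17.3% of all tested genes were called. Of 13, 12 had values above SG in YSGnr and 9 in YSGr, and 7 in YSGnr and 3 in YSGr had all libraries above SG, where 16.9% and 19.5% of all tested genes had. The 3 of 13 in YSGr are near that share. mt-Co1 was at 12.96, 12.84 and 13.17 log2 CPM in YSGr and 13.02, 13.68 and 13.74 in YSGnr, against 12.82, 12.71 and 12.86 in SG. mt-Cytb, the mitochondrial subunit of complex III, was at 11.57, 11.51 and 11.69 in YSGr and 11.65, 12.23 and 12.38 in YSGnr, against 11.39, 11.28 and 11.50 in SG. Both had all YSGnr libraries above SG, with differences of 0.68 (SE 0.35, limma adjusted p = 0.247) and 0.70 (SE 0.27, limma adjusted p = 0.151). mt-Atp6, the proton channel subunit of complex V, was at 11.46, 11.33 and 11.31 in YSGr and between 11.60 and 12.31 in YSGnr, against 11.19, 11.26 and 11.42 in SG. It was 1 of 3 members, with mt-Nd1 and mt-Nd4l, whose YSGr libraries were all below all YSGnr libraries, where 7.46% of all tested genes were. The direction of these values in YSGnr depended on scaling: under quantile normalization the median of the 13 was -0.13 in YSGnr against SG, and 0.47 on the deposited scale.

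mt-Co2, which receives electrons from cytochrome c, was at 11.38, 11.28 and 11.38 in YSGr and 11.25, 12.06 and 12.23 in YSGnr, against 11.11, 11.15 and 11.27 in SG. mt-Nd4l, a membrane subunit of complex I, had the smallest adjusted p of the 13 in YSGnr, at 7.28, 7.50 and 7.57 in YSGnr against 7.04, 6.79 and 7.12 in SG (difference 0.47, SE 0.14, limma adjusted p = 0.089).

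The 13 did not move as a block. In YSGr replicate 3 the differences from SG ran from -1.03 for mt-Atp8 to 0.37 for mt-Co1. mt-Atp8 was at 7.69, 7.31 and 6.30 log2 CPM in YSGr and 6.78, 7.06 and 7.25 in YSGnr, against 7.11, 7.47 and 7.40 in SG. mt-Nd5 was at 11.07, 10.76 and 10.17 in YSGr and 10.75, 10.75 and 10.89 in YSGnr, against 10.83, 10.50 and 10.92 in SG. mt-Nd6, the only message on the opposite strand to the other 12, was at 9.19, 8.96 and 8.32 in YSGr and 8.86, 8.81 and 9.19 in YSGnr, against 8.91, 8.74 and 9.10 in SG. The third YSGr library was the lowest of all 9 for each of these genes. In YSGnr replicates 2 and 3, in which most mitochondrial messages were high, mt-Atp8, mt-Nd5 and mt-Nd6 differed from SG by between -0.27 and 0.27. The 3 had no call in any comparison (limma adjusted p of at least 0.558), and the shared bases of mt-Atp8 and mt-Atp6 printed above make the first uncertain. The mitochondrial ribosomal RNAs, which are no members, were at 13.73 (mt-Rnr1) and 14.62 log2 CPM (mt-Rnr2) in YSGnr replicate 1, against at most 10.11 and 11.54 in the other 8 libraries, while the 13 messages there had a median of 0.07 above SG.

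**Figure D3:**
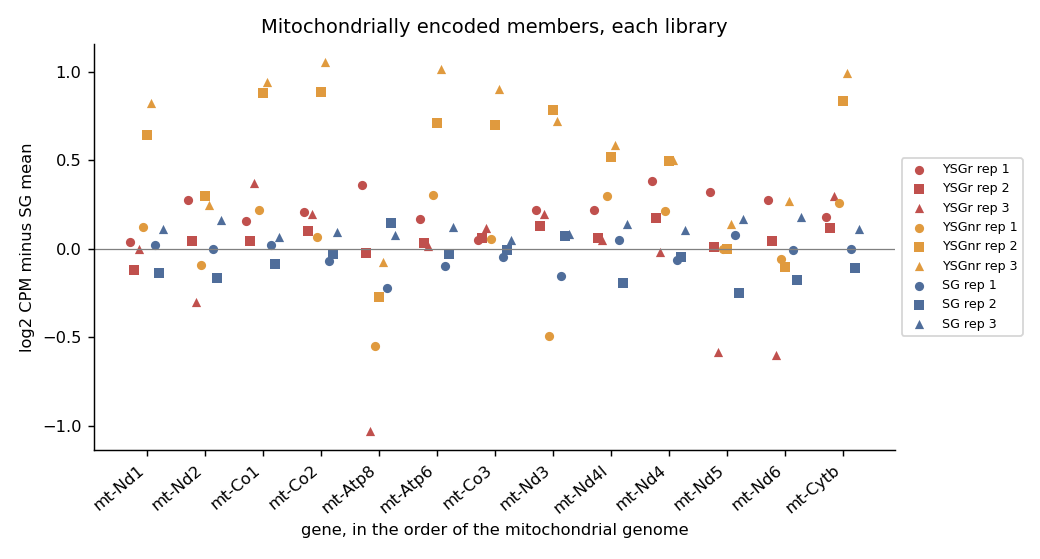
Difference from the SG mean (log2 CPM, vertical) of the 13 mitochondrially encoded members in genome order (horizontal). Colours are groups and symbols replicates: in YSGr replicate 3 mt-Atp8 is at -1.03, mt-Nd5 at -0.58 and mt-Nd6 at -0.60, and in YSGnr replicates 2 and 3 most other genes lie above 0.4.

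Transcript length moved with the nuclear block. The nuclear members have a median transcript of 823.5 bases, and in the high libraries short genes in general were high. The 1089 tested genes with a transcript under 1000 bases had medians of 0.44, 0.69 and 0.69 relative to SG in YSGr replicate 3 and YSGnr replicates 2 and 3, where the 46 nuclear members of that length had 0.69, 0.94 and 0.98. Of these short genes 24.2% were apart from SG in the higher direction in YSGnr and 15.4% in YSGr. The short nuclear members had 19.6% in YSGnr, which is no more than short genes in general, and 43.5% in YSGr. Of the nuclear members of 1000 bases or more, 58.6% were apart in this direction in YSGnr and 24.1% in YSGr. All tested genes of that length had 16.4% and 19.8%. Among genes of 1000 bases or more, the 29 nuclear members had medians of 0.60, 0.89 and 1.07 in these 3 libraries, where all 13856 such genes had 0.03, -0.03 and -0.04. In the medians of these 3 libraries, long nuclear members were therefore close to short ones. The 23 of them under 2000 bases had medians of 0.60, 0.92 and 1.09. All 3036 tested genes of 1000 to under 2000 bases had 0.29, 0.38 and 0.39, so these too were above SG. The 10820 tested genes of 2000 bases or more had -0.04, -0.13 and -0.16. In YSGr replicates 1 and 2 short genes were low, with medians of -0.22 and -0.25, while the short nuclear members were at 0.07 and 0.08. In YSGnr replicate 1 short genes were at -0.03 and short nuclear members at -0.12, and nuclear members of 1000 bases or more were at 0.10. Within the nuclear members, differences from SG had little order by length in the 3 high libraries. Spearman rho over genes was -0.16 in YSGr replicate 3 and -0.21 and -0.03 in YSGnr replicates 2 and 3 (75 genes measured in the same library). In YSGnr replicate 1 it was 0.44, with longer members higher.

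**Figure D4:**
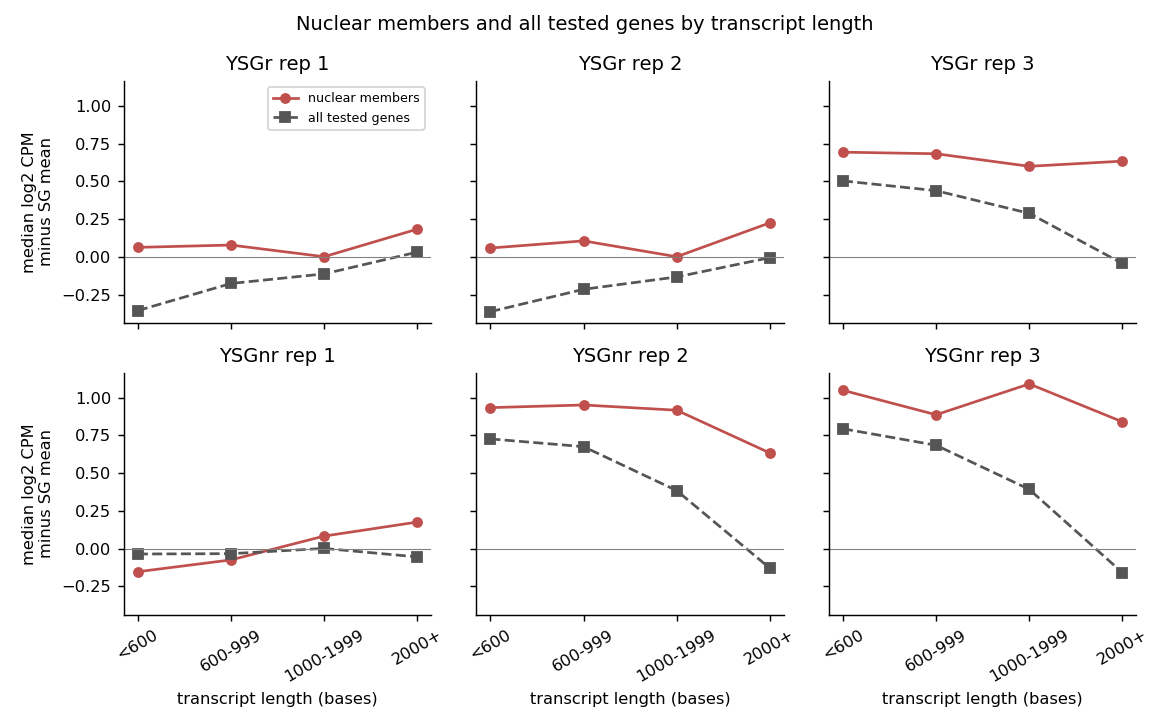
Median difference from the SG mean (log2 CPM, vertical) by transcript length class (bases, horizontal) in the 6 YSGr and YSGnr libraries, for nuclear members (circles; 19, 27, 23 and 6 genes from short to long) and all tested genes (squares; 300, 789, 3036 and 10820 genes). All tested genes fall with length in YSGr replicate 3 and YSGnr replicates 2 and 3, to -0.04, -0.13 and -0.16 in the longest class, and the nuclear medians lie between 0.60 and 1.09 over all classes of these 3 libraries.

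With a smooth trend of length and GC content removed from every library, the nuclear median relative to SG was 0.38, 0.36 and 0.40 in YSGr and -0.02, 0.50 and 0.55 in YSGnr, and lay between -0.04 and 0.02 in the SG libraries. The mitochondrial median was 0.50, 0.48 and 0.37 in YSGr and 0.14, 0.40 and 0.77 in YSGnr, and lay between -0.12 and 0.13 in SG. The 3 YSGr libraries came together for both kinds, and YSGnr replicate 1 stayed near SG. On these values 15 members were called in YSGr, all higher, 4 in YSGnr, all higher, and 5 between YSGr and YSGnr, 4 of them higher in YSGr. In YSGr, Cox5b, Cox6a1, Ndufa4, Cox6b1, Atp5o, Ndufs5 and the mitochondrial mt-Nd4l were among them beside Ndufv3 and Atp5sl, and 13.5% of all tested genes were called. The shares of all tested genes were 5.3% in YSGnr against SG and 12.3% in YSGr against YSGnr, no lower than the members' shares. The trend is fitted on all genes, and in YSGr replicates 1 and 2 its removal put an order by length into the nuclear members that the deposited values lack, with Spearman rho of -0.72 and -0.58 over genes after it and -0.01 and -0.08 before. The corrected values of short members there may therefore be too high, which was not tested.

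**Figure D5:**
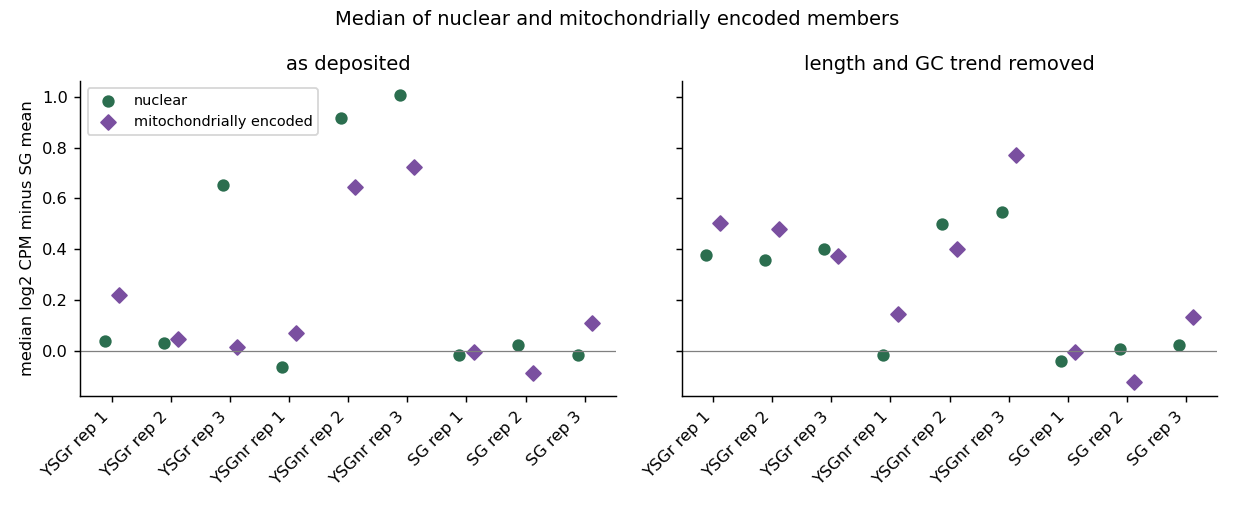
Median difference from the SG mean (log2 CPM, vertical) of nuclear (circles) and mitochondrially encoded members (diamonds) by library, on the deposited values at left and with the length and GC trend removed at right. The nuclear medians of YSGr are 0.04, 0.03 and 0.65 at left and 0.38, 0.36 and 0.40 at right.

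Other genes of the pathway, taken from lists of its parts, showed few calls. Complex II is encoded wholly by nuclear genes, and none of its 4 genes was called. Sdhb, its iron-sulfur subunit, was at 6.40, 6.45 and 7.24 log2 CPM in YSGr and 6.86, 7.53 and 7.97 in YSGnr, against 6.47, 6.41 and 6.40 in SG. Sdha, its flavin-binding subunit, was at 7.43, 7.46 and 7.70 in YSGr and 7.25, 7.75 and 7.78 in YSGnr, against 7.49, 7.46 and 7.51 in SG. Cycs, which encodes cytochrome c, was at 6.32, 6.37 and 6.55 in YSGr and 5.86, 6.92 and 6.84 in YSGnr, against 6.14, 6.21 and 6.20 in SG, and was not called (limma adjusted p of at least 0.38). Cyc1, the cytochrome of complex III, was at 6.93, 6.93 and 7.35 in YSGr and 6.81, 7.30 and 7.43 in YSGnr, against 6.80, 6.74 and 6.72 in SG (limma adjusted p of at least 0.188).

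None of 15 tested complex I assembly genes, 26 assembly genes of complexes III, IV and V, 9 genes around cytochrome c and ubiquinone, 7 genes of mitochondrial DNA maintenance, or 12 carriers and outer membrane genes was called in any comparison. Of 77 mitochondrial ribosomal protein genes Mrps26 rose in YSGr (log2 fold change 0.43, SE 0.12, limma adjusted p = 0.0456). In YSGnr 72 of the 77 had values above SG with a median of 0.42, and in YSGr 29 of 77 with a median of -0.04. The nuclear members had 73 of 75 above SG in YSGnr with a median of 0.62, and 74 of 75 in YSGr with a median of 0.23. Of all tested genes 49.3% and 47.7% were above SG, and of those under 1000 bases 76.7% and 45.6%. Between YSGr and YSGnr 11 of the 88 members had values above 0, where 50.5% of all tested genes had. Of tested genes under 1000 bases 22.7% had. Of 16 citric acid cycle genes 15 had values above SG in YSGr, with a median of 0.12, and 10 in YSGnr, with a median of 0.17. Ogdh, a subunit of the oxoglutarate dehydrogenase of that cycle, was higher in YSGr than in YSGnr by 0.79 (SE 0.20, limma adjusted p = 0.0486).

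Regulators of mitochondrial gene expression went in both directions. Of 18 tested genes 1 rose and 1 fell in YSGr against SG, and none was called in YSGnr. Esrra, a nuclear receptor known to activate respiratory genes, was at 5.07, 5.14 and 5.06 in YSGr and 4.76, 4.89 and 5.11 in YSGnr, against 4.36, 4.68 and 4.46 in SG, and rose by 0.59 in YSGr (SE 0.14, limma adjusted p = 0.0324). Gabpa, the DNA-binding part of an ETS factor of respiratory promoters, was at 5.86, 5.76 and 5.77 in YSGr and 5.76, 5.99 and 5.81 in YSGnr, against 6.14, 6.33 and 6.24 in SG, and fell by 0.44 in YSGr (SE 0.12, limma adjusted p = 0.0485). Ppargc1b, a coactivator of mitochondrial biogenesis, was at 2.55, 2.80 and 1.68 in YSGr, against at most 1.25 in YSGnr, and was higher in YSGr by 1.69 (SE 0.39, limma adjusted p = 0.0436). Its relative Ppargc1a was at 4.74, 5.0 and 3.62 in YSGr and 4.10, 3.52 and 3.14 in YSGnr, against 4.01, 3.93 and 4.12 in SG, without a call. Tfam, which packages mitochondrial DNA and starts its transcription, was at 5.08, 5.0 and 5.42 in YSGr and 5.29, 5.79 and 5.70 in YSGnr, against 5.48, 5.53 and 5.58 in SG (limma adjusted p of at least 0.119).

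Markers of several cell types differed between libraries. The median of 10 mature granule neuron markers relative to SG was 2.03, 2.11 and 1.5 in YSGr and 1.18, 0.42 and 0.80 in YSGnr. The median of 10 genes of dividing cells was -0.86, -1.22 and -0.14 in YSGr and -0.17, -0.29 and -0.19 in YSGnr. The granule neuron median was, within each group, highest in the libraries whose nuclear median was near 0. Of the granule neuron markers 6 rose in YSGr and 5 in YSGnr, and of the genes of dividing cells 5 and 1 fell, with summed levels of the first between 10.33 and 11.30 log2 CPM in YSGr and 9.52 and 10.23 in YSGnr, against 9.43 to 9.71 in SG. Markers of microglia and macrophages had a median of 0.42 and 0.61 in YSGnr replicates 2 and 3, 0.10 in YSGr replicate 3 and at most -0.36 in the other 3. Those of myelinating oligodendrocytes lay between 0.20 and 2.44 in all 6, and those of erythrocytes between -1.27 and 0.13. Purkinje cell markers had medians of 1.35, 1.42 and 0.86 in YSGr and 0.26, 0.03 and -0.25 in YSGnr. Those of astrocytes and Bergmann glia lay between -0.72 and 0.25, and those of endothelium between -1.02 and 0.01. Of 7 muscle markers 4 had values and 2 passed the filter. The summed levels of the 4 were 1.8 to 2.12 log2 CPM in YSGr and 1.26 to 2.05 in YSGnr, against 2.21 to 2.75 in SG. The part of these cells in the values of the respiratory chain genes was not tested.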

How the data were processed

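RNA of mouse tumour tissue was sequenced by BGI on the DNBseq platform, per the labels' protocols, and the submitters' processing notes name Trimmomatic, RSEM, Bowtie2, Picard, edgeR and mm10, without versions. The authors deposited 1 table of log2 CPM for 17482 genes in 9 libraries, with a library scaling and an added count; its lowest value, -3.52, matches an added count of 2. Reads back-calculated from it came within 0.02 of a whole number for 36.8% to 62.2% of the low values, so they are estimates, and no count test was the main one.

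The deposited values went into limma 3.58.1 (R 4.3.3), as 1 model of 3 group means with a mean-variance trend and two-sided tests. The filter kept a gene whose log2 CPM exceeded 0 in 3 or more of the 9 libraries. A difference on this scale understates changes of genes near the lowest value. The steps were tested on simulated data. Transcript length, GC content and position were taken from GENCODE M21 (GRCm38, the assembly of mm10), with RefSeq names where symbols differed, and covered 97.9% of symbols and all 89 members. Figures were drawn with matplotlib 3.10.9. No 2 libraries of a group were alike within counting error, and all 9 were kept apart.

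The members and gene lists were chosen with earlier results of these data known. Named were all mitochondrial members, called nuclear members, the member with the smallest p of each complex without a call, isoform pairs and the highest and lowest of each complex, of which 1 is not reported here; Cox5b, Ndufs1, Ndufs5, Ndufs8, Ndufb11, Cox7b and Sdhb were named after their values were seen. Alternatives were other filters, a pseudocount of 1 CPM, median and quantile scaling, removal of a length and GC trend (splines with 4 degrees of freedom), 6 libraries alone, no trend, a replicate block, limma voom, and left-out libraries. The NRF1 and YY1 letters were first searched with 1 more letter each, which matched fewer windows of members and of all genes.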

Additional observations from a re-analysis of the deposited data

How the results depend on the processing

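Members called in YSGr against SG, YSGnr against SG and YSGr against YSGnr numbered 2, 1 and 0 on the deposited values and were within 1.5 times of that with no filter, a stricter filter, a pseudocount of 1 CPM, median or quantile scaling, no mean-variance trend and limma voom. With the length and GC trend removed they numbered 15, 4 and 5, with YSGnr replicate 1 left out as well 41, 49 and 18 (18.8%, 15% and 28.3% of all tested genes were called), and without YSGr replicate 3 and YSGnr replicate 1 together 18, 79 and 74 (49.5%, 52.9% and 64.7%). The counts of 18 are below the share of all genes. Where YSGnr replicate 1 was left out, sex cannot be told apart from group between YSGr and YSGnr. The 6 libraries of each comparison alone gave 5, 2 and 0. Leaving out 1 library gave 0 to 7, 0 to 76 and 0 to 59. With a replicate block the counts were 2, 1 and 0, and 9, 3 and 4 with the block and the trend removed. Correlations of same-numbered libraries ran from -0.23 to 0.24, and not every library correlated best with its own number. With 3 libraries per group these correlations cannot tell whether the numbers pair the samples.

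The mitochondrial minus nuclear median (-0.15, -0.15 and -0.03) was -0.75 in YSGnr against SG and 0.46 in YSGr against YSGnr under quantile normalization, and 0.31 in YSGr against YSGnr without YSGr replicate 3 and YSGnr replicate 1. Removing the trend gave 0.07, 0.11 and -0.01. Leaving out 1 library gave -0.29 to 0.12, -0.25 to -0.04 and -0.17 to 0.19. Without YSGr replicate 3 and YSGnr replicate 1, Cox7a2l was -0.31 in YSGr against SG, and Ndufa1 and Uqcrb were -0.49 and -0.40 in YSGr against YSGnr. Over the libraries left out singly, Ndufa1 ran there from -0.42 (without YSGnr replicate 1) to 0.32. The 4 are opposite in sign to the deposited values and passed the test (limma adjusted p = 0.0155, 0.00253, 0.00485 and 0.0406); the cause was not tested. Depth limits YSGnr replicate 1 most, with 3.52 M reads outside Yam1 and Lars2.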
